A study of Homo sapiens with 12 samples.

Results

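NR4A1 (Nur77), NR4A2 (Nurr1) and NR4A3 (Nor1) form the NR4A family of orphan nuclear receptors, and their transcripts were followed here in a pair of human pancreatic cancer cell lines given the phorbol ester PMA. The genes were taken by symbol, which found all 3, with 3 probe sets each, among the 19775 genes that had a probe set annotated to a single symbol. All 3 also passed the filter on low signal that left 16099 genes to test. Affymetrix arrays were made from 4 groups of 3. The groups were BxPC-3 cells given PMA at 1 µM for 4 h, untreated BxPC-3 cells, AsPC-1 cells given the same PMA treatment, and untreated AsPC-1 cells. BxPC-3 was derived from a primary pancreatic tumour and AsPC-1 from ascites, and the series calls AsPC-1 the metastatic line. Cells of all 4 groups had been held overnight in 2.5% serum. PMA was dissolved in DMSO, and the labels do not state a vehicle for the untreated cells. The series asked how PMA, which its design text describes as inducing invasion, changes expression in each line, and how the stimulated lines differ. The labels call the 3 arrays of a group biological replicates, taken at 3 passages of the line (7, 9 and 11 for BxPC-3, 8, 10 and 12 for AsPC-1). The p-values thus measure the spread between passages of a line. The main fit estimates that spread over both lines together and does not pair arrays of the same passage.

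NR4A proteins are transcription factors whose ligand-binding pocket is closed by bulky side chains, so their activity follows mainly the amount and modification of the protein rather than a hormone. They are classical immediate early genes: growth factors, cAMP, calcium and phorbol esters switch them on within minutes to hours, through CREB bound at cAMP response elements and through MEF2 and serum response factor. NR4A1 and NR4A3 were first studied as growth factor and apoptosis-linked genes, and NR4A2 is best known for the differentiation of dopamine neurons. They bind the NBRE as monomers, and NR4A1 and NR4A2 can pair with the retinoid X receptor. PMA activates protein kinase C, which feeds the MAP kinase pathway.

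The promoters of NR4A1 and NR4A3 are shown first because CREB sites are where such stimuli are known to reach these genes. The windows come from RefSeq on GRCh38.p14, plus strand, and run 5′ to 3′ over 250 bases before and 50 after each annotated start, at chr12:52022582-52022881 and chr12:52037465-52037764 for the NR4A1 starts and chr9:99821635-99821934 for NR4A3. Capitals mark the half-site of the cAMP response element, TGACG on either strand (cgtca when read on the printed strand).
NR4A1, start 1: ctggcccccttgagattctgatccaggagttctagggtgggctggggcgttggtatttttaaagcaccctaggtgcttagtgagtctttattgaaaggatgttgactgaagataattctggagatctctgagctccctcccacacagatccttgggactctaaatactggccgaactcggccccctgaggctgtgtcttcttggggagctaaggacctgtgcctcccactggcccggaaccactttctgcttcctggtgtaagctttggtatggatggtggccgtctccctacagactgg
NR4A1, start 2: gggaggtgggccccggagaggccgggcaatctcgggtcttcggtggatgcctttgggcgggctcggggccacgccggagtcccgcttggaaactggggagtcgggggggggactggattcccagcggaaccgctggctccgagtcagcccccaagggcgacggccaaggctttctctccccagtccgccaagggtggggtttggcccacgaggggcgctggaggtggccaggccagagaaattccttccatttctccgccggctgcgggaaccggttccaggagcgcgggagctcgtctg
NR4A3: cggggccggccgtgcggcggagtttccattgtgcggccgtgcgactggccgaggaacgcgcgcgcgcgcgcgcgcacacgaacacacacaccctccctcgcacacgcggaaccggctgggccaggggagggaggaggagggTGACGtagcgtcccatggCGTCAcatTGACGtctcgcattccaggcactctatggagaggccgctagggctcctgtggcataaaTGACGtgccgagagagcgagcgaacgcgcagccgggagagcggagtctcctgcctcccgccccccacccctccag
The NR4A3 window held 4 half-sites, whose first bases lay 109, 91, 83 and 25 bases before the start. At least 4 were found in 0.313% of 35116 human promoter windows of the same length, and at least 1 in 24.6%. Neither NR4A1 window held one, and no NR4A1 sequence outside these windows was searched. The full cAMP response element TGACGTCA (in 1.85% of windows, and itself holding a half-site on each strand), the AP-1 site TGANTCA (7.71%), the NBRE AAAGGTCA (1.22%) and the serum response CArG box (1.29%) had no match in any of the 3 windows, on either strand. A match is a run of letters and not a measured binding site, and GC content was 53.3% and 69.7% in the NR4A1 windows and 69.7% in the NR4A3 window. NR4A2 is given by its signals only.

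All 8 duct-like epithelial markers lay above the array's 40th percentile of signal (8.18 to 10.2) on 12 of 12 arrays, with EPCAM between 1593 and 5362. Of the markers of other cell types, INS, GCG and the acinar gene CPA1 were above that percentile on 0 arrays, and PTPRC (leukocytes), CDH5 (endothelium) and PDGFRB (fibroblasts) on 1 each. CPA1 was the only 1 of 3 acinar markers with a probe set of a single symbol. Others were above it more often, PECAM1 (21.6 to 63.6) and CD14 (at most 64.1) on 12 arrays and CD3E, COL1A1 (2.17 to 91.8) and DCN on 11. The fibroblast marker COL3A1 (at most 57.7) was above the 40th percentile on 7 arrays, the endothelial VWF on 4 and the endocrine CHGA on 3. The summed signal of the 4 fibroblast markers differed with the line, at 110.1 to 172 in BxPC-3 PMA and 105 to 154 in untreated BxPC-3 cells, against 19.3 to 78.8 in AsPC-1 PMA and 58.8 to 83.8 in untreated AsPC-1 cells. The sum of 3 leukocyte markers ran the other way, at 28.3 to 40.3 in BxPC-3 PMA and 24.8 to 34.6 in untreated BxPC-3 cells, against 50.2 to 55.9 in AsPC-1 PMA and 52.2 to 90.4 in untreated AsPC-1 cells, and the part of either in the results between lines was not tested.

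AsPC-1 PMA replicate 1 (passage 8) stood apart. Its mean correlation with its own group was 0.92 across probe sets, lower than its correlation of 0.96 with untreated AsPC-1 replicate 1. That untreated array, of the same passage, also correlated less with its own group (0.941) than with the PMA array (0.96). Both arrays of passage 8 thus lay nearer to each other than to their groups. Results for genes that AsPC-1 PMA replicate 1 moves are given with and without it, and some also without both arrays. Probe sets tested one by one were fitted only over all 12 arrays. The ACTB control probe sets, whose 3′ over 5′ signal reads RNA integrity, gave ratios of 1.84, 1.99 and 2.02 on the BxPC-3 PMA arrays, against 2.56, 2.95 and 4.14 on the untreated BxPC-3 arrays. The GAPDH ratios were close to each other, at 1.0 to 1.07 on the BxPC-3 PMA arrays and 1.04 to 1.12 on the untreated BxPC-3 arrays. The part of the ACTB difference in the BxPC-3 results was not tested.

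In BxPC-3, the brightest probe sets of all 3 NR4A genes had higher signal on every PMA array than on any untreated array, a pattern shared by 17.0% of all genes. The groups overlapped on 2 further probe sets of NR4A1 and 1 of NR4A3. Of the 3 genes, the NR4A2 rise alone passed the test over all 12 arrays. In AsPC-1, the brightest probe sets of NR4A1 and NR4A3 were far higher on 2 of the 3 PMA arrays and not on the array of passage 8. Probe sets 210226_at of NR4A1 and 216979_at of NR4A3 overlapped between PMA and untreated AsPC-1 arrays, with and without that array. NR4A2 was already high in untreated AsPC-1 cells and did not pass the test after PMA.

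**Figure D1:**
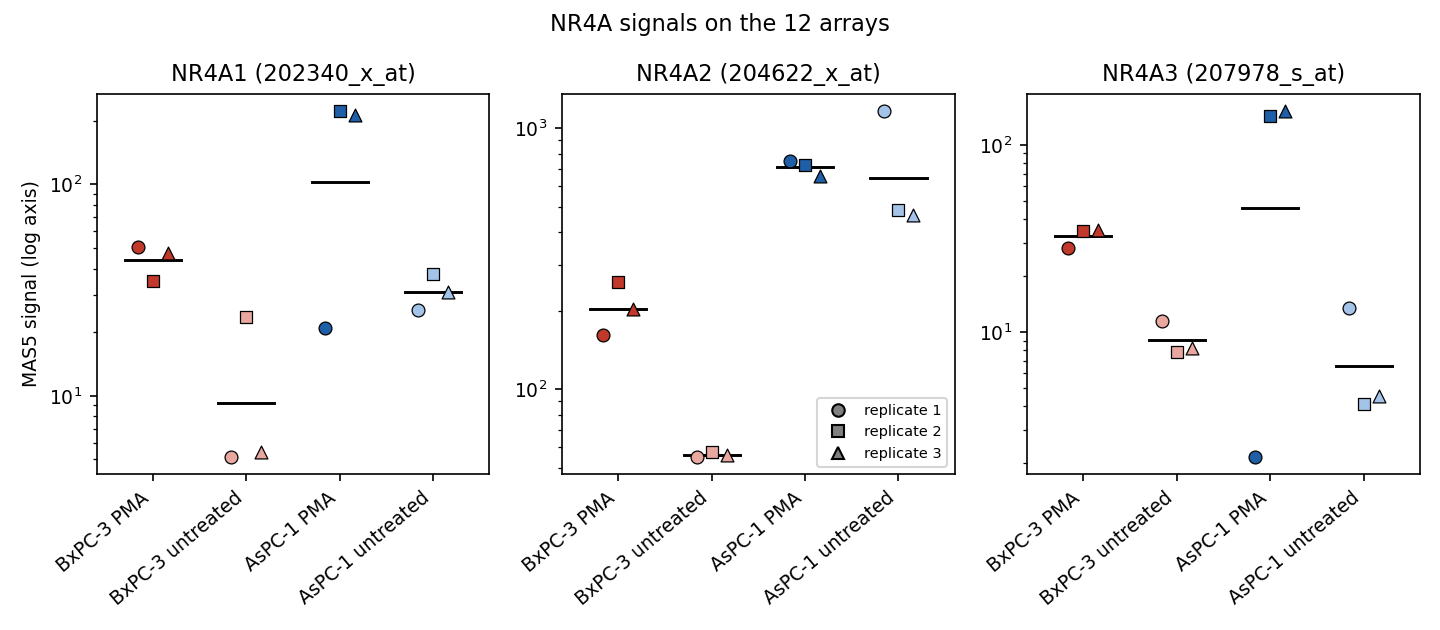
MAS5 signal (log axis, a scale of its own in each panel) of the highest probe set of NR4A1, NR4A2 and NR4A3 on each of the 12 arrays. Points are arrays, with one shape per replicate number, and bars are group means of log2(signal + 3) turned back into signal. The AsPC-1 PMA point of replicate 1 lies apart from replicates 2 and 3 for NR4A1 (20.9) and NR4A3 (2.16).

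NR4A1, the receptor whose protein can also move to mitochondria and bind BCL2, had signals of 50.7, 35.0 and 47.5 on the BxPC-3 PMA arrays, against 5.16, 23.7 and 5.41 on the untreated BxPC-3 arrays (replicates 1, 2 and 3; probe set 202340_x_at). The groups did not overlap, and the untreated array of replicate 2 was the high one of its group. On the scale of log2(signal + 3), which shrinks changes at low signal, the difference was 1.94 ± 0.70 (SE), the 103rd highest of 16099 genes, with an adjusted p = 0.129. The SE is set by a spread estimated over all 12 arrays. Leaving out AsPC-1 PMA replicate 1 kept the BxPC-3 change at 1.94 with an SE of 0.39, and it passed (adjusted p = 0.0041, with 14.9% of all genes called). A fit of the 6 BxPC-3 arrays alone also called it (adjusted p = 0.00939, with 22.0% of all genes called). A bulk signal does not tell more RNA per cell from more cells expressing the gene.

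In AsPC-1, NR4A1 had 20.9, 223 and 214 on the PMA arrays, against 25.5, 37.7 and 30.9 on the untreated arrays. Replicates 2 and 3 lay above every untreated array, and replicate 1 below them all, so the groups overlapped, and did not without replicate 1. The difference was 1.63 ± 0.70 (adjusted p = 0.265). It was 2.70 ± 0.43 without AsPC-1 PMA replicate 1 and then passed (adjusted p = 0.000596, with 19.5% of all genes called), and 2.57 when both arrays of passage 8 were left out (adjusted p = 0.00103). The fit without both arrays called 23.4% of genes for PMA in BxPC-3, 21.4% in AsPC-1, 7.37% for the difference of the responses, 47.3% between the PMA-treated lines and 44.4% between the untreated lines.

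The other NR4A1 probe sets did not follow the first in BxPC-3. Probe set 211143_x_at had 22.5, 80.3 and 96.1 on the AsPC-1 PMA arrays, against 12.3, 37.5 and 2.85 on the untreated AsPC-1 arrays, a difference of 1.95 ± 0.78 that did not pass, and in BxPC-3 its difference was -0.28 ± 0.78. Probe set 210226_at had a difference of 0.07 ± 0.59 in BxPC-3 and of -0.58 ± 0.59 in AsPC-1. Both lay near the dim end of the arrays in BxPC-3, with group means between 8.37 and 13.5. The NR4A1 difference in BxPC-3 rests on 1 probe set, whose x mark says that some of its probes can also bind other transcripts. In AsPC-1 the NR4A1 probe sets with a positive difference, 202340_x_at and 211143_x_at, both bear that mark.

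NR4A2, the Nurr1 receptor, had 161, 258 and 203 on the BxPC-3 PMA arrays, against 55.3, 57.5 and 56.0 on the untreated BxPC-3 arrays (204622_x_at). The untreated arrays were almost equal, and the lowest PMA array lay well above them. NR4A2 rose by 1.80 ± 0.30 on the log2 scale (adjusted p = 0.0038), a call kept with any single array left out. It was the only one of the 3 NR4A genes called in this comparison, in which 5.82% of all 16099 genes were called (2.52% higher and 3.30% lower after PMA). All 3 NR4A2 probe sets rose in BxPC-3 when every probe set was tested (5.00% called), by 1.57, 1.80 and 1.94, with adjusted p-values of 0.0476, 0.00426 and 0.00175. Probe set 216248_s_at had 169.6, 223 and 193 after PMA, against 47.0, 49.6 and 48.1 in untreated BxPC-3 cells. Probe set 204621_s_at had 49.2, 74.1 and 56.2, against 20.2, 18.5 and 15.3, so neither overlapped. The main NR4A2 probe set, 204622_x_at, bears the x mark described above for NR4A1, and 216248_s_at and 204621_s_at do not. Non-overlap alone was common, as the share of 17.0% given above shows, so nothing is read from it for the 3 NR4A genes.

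In AsPC-1, NR4A2 had 751, 727 and 660.3 on the PMA arrays, against 1169, 489 and 467 on the untreated arrays. The untreated array of passage 8 was the highest of all 12, and the other untreated arrays lay below every PMA array. The difference was 0.14 ± 0.30 (adjusted p = 0.865), and 0.10 ± 0.32 without AsPC-1 PMA replicate 1 (adjusted p = 0.87). Without AsPC-1 untreated replicate 1 it was 0.57 ± 0.20 and still did not pass (adjusted p = 0.185). No NR4A gene was called in AsPC-1, where limma called 1.96% of genes (1.24% higher and 0.721% lower). These were 200 higher and 116 lower, or 201 and 62 after centring each array on its median. The passage block gave 449 higher and 455 lower, and the fit without AsPC-1 PMA replicate 1 turned the balance to 981 higher and 2166 lower. NR4A1 and NR4A3 had an unadjusted p below 0.05, and NR4A2 did not.

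NR4A3, the Nor1 receptor whose window above carries the half-sites, had 28.2, 34.6 and 35.2 on the BxPC-3 PMA arrays, against 11.4, 7.85 and 8.26 on the untreated BxPC-3 arrays (207978_s_at). The groups did not overlap. The difference of 1.56 ± 0.95 did not pass over all 12 arrays (adjusted p = 0.386). It passed at the same log2 difference without AsPC-1 PMA replicate 1 (SE 0.34, adjusted p = 0.00655, with 14.9% of all genes called). It also passed on the BxPC-3 arrays alone (adjusted p = 0.00245, with 22.0% of all genes called). The probe set 209959_at had 13.6, 26.0 and 23.2 after PMA, against 2.83, 2.67 and 2.81 in untreated BxPC-3 cells, where it was not above the 40th percentile on any array. Its difference of 2.01 ± 0.93 did not pass when every probe set was tested with limma (adjusted p = 0.249).

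In AsPC-1, NR4A3 had 2.16, 142 and 152 on the PMA arrays, against 13.5, 4.12 and 4.54 on the untreated arrays. Replicates 2 and 3 held the highest NR4A3 signals of the series, and replicate 1 the lowest, so the groups overlapped, and did not without replicate 1. The difference was 2.34 ± 0.95, the 48th highest of 16099, with an adjusted p = 0.232. Without AsPC-1 PMA replicate 1 the NR4A3 difference was 3.96 ± 0.38 (adjusted p = 1.04e-05, with 19.5% of all genes called). It was 4.35 without both arrays of passage 8 (adjusted p = 4.87e-07, with 21.4% called). As for NR4A1 above, the PMA array left out was the lowest of its group, which by itself raises the difference. Probe set 209959_at gave 3.04, 183 and 153 after PMA, against 3.15, 5.55 and 2.83 in untreated AsPC-1 cells, with the same array low. Its difference of 3.05 ± 0.93 did not pass when every probe set was tested with limma (adjusted p = 0.136). The dimmest NR4A3 probe set, 216979_at, had differences of 0.17 in BxPC-3 and 0.18 in AsPC-1, with SE 0.47 each.

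**Figure D2:**
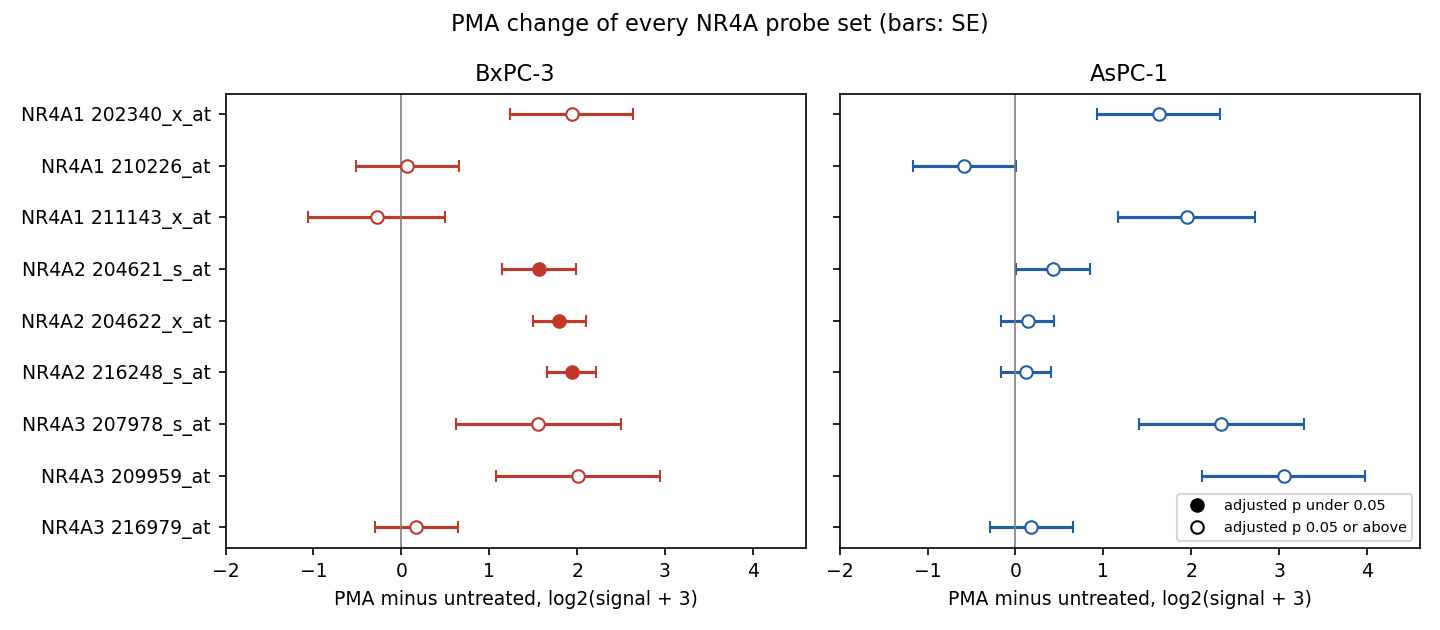
Change of each of the 9 NR4A probe sets after PMA, as the difference of log2(signal + 3) between PMA and untreated arrays with its SE, in BxPC-3 and AsPC-1. Filled points have an adjusted p below 0.05. The 3 NR4A2 probe sets lie together in both lines, while 210226_at of NR4A1 and 216979_at of NR4A3 stay near 0 in BxPC-3.

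Within passages, the brightest probe sets were compared as the PMA array minus the untreated array of the same passage. The difference was above 0 for all 3 genes in all BxPC-3 passages. No share over all genes is given for this, and nothing is read from it. Of the other probe sets, 210226_at and 211143_x_at of NR4A1 were higher in 1 of 3 BxPC-3 passages, and 216979_at of NR4A3 in 2 of 3. NR4A1 differed by 2.72, 0.51 and 2.59 in BxPC-3 passages 7, 9 and 11; the untreated array of passage 9 was the high one. In AsPC-1 passages 8, 10 and 12 it differed by -0.25, 2.47 and 2.68. NR4A3 differed by 1.12, 1.79 and 1.76 in BxPC-3 and by -1.68, 4.34 and 4.37 in AsPC-1. NR4A2 differed by 1.49, 2.11 and 1.81 in BxPC-3 and by -0.64, 0.57 and 0.50 in AsPC-1. On these probe sets passage 8 of AsPC-1 was below 0 for all 3 genes. Its untreated array was the highest of its group for NR4A2 and NR4A3 and the lowest for NR4A1. Of the other probe sets, 211143_x_at of NR4A1 was above 0 in passage 8 (0.73) and in 3 of 3 AsPC-1 passages. In passage 8, 210226_at (-0.24), 204621_s_at (-0.37), 216248_s_at (-0.72), 209959_at (-0.03) and 216979_at (-0.33) were below 0.

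**Figure D3:**
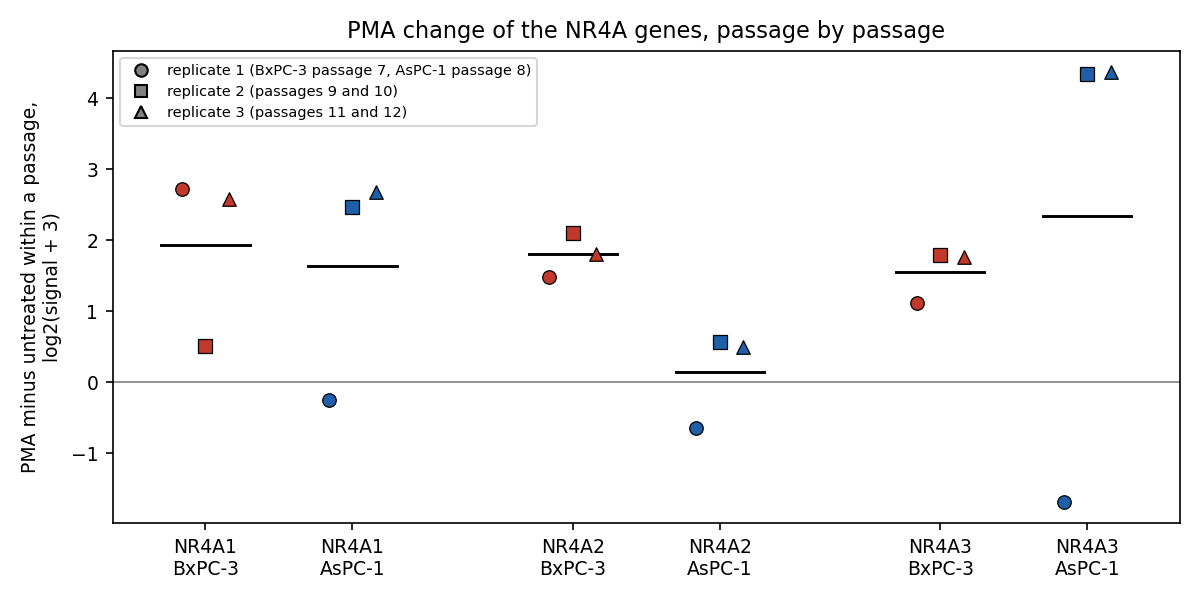
Difference of log2(signal + 3) between the PMA and the untreated array of each passage, for the brightest probe sets of NR4A1, NR4A2 and NR4A3 in both lines. Points are passages and bars the mean of 3. Every BxPC-3 passage lies above 0, and passage 8 of AsPC-1 lies below 0 for all 3 genes.

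The PMA responses of the lines were compared directly as BxPC-3 minus AsPC-1. None of the 3 NR4A genes passed over all 12 arrays, where limma called 0.491% of genes, nor with passage as a block (0.783% called), and only NR4A2 had an unadjusted p below 0.05. For NR4A2 the difference was 1.66 ± 0.42 (adjusted p = 0.148). It was 1.70 ± 0.43 without AsPC-1 PMA replicate 1 and then passed (adjusted p = 0.0407), where 4.43% of genes were called. For NR4A3 the difference was -0.79 ± 1.34 (adjusted p = 0.925), and -2.41 ± 0.50 without that array (adjusted p = 0.0167). For NR4A1 it was 0.31 ± 1.00 (adjusted p = 0.967), and -0.76 ± 0.58 without that array (adjusted p = 0.521), so the sign changed with the array left out and no difference of the NR4A1 responses was called either way.

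The lines differed in NR4A2 before any treatment. Untreated BxPC-3 cells had 55.3 to 57.5 and untreated AsPC-1 cells 467 to 1169, a difference of -3.45 ± 0.30 (adjusted p = 1.02e-06), the 217th lowest of 16099. After PMA the difference was -1.79 ± 0.30 (adjusted p = 0.000368). Both calls were kept with any single array left out. Differences between the lines were common, with 32.4% of genes called untreated (15.6% lower in BxPC-3) and 33.5% after PMA (15.2% lower in BxPC-3). NR4A2 was the only NR4A gene of the 3 called in either. NR4A1 was lower in BxPC-3 without passing, at -1.47 ± 0.70 untreated (adjusted p = 0.13) and -1.17 ± 0.70 after PMA (adjusted p = 0.235). Its probe set 211143_x_at, with 1.21, 14.5 and 9.44 on the BxPC-3 PMA arrays and values of 22.5 and above in AsPC-1 PMA cells, was called lower in BxPC-3 after PMA when every probe set was tested (-2.62 ± 0.78, adjusted p = 0.0214, 29.9% called). NR4A1 passed in both without AsPC-1 PMA replicate 1 (-1.47, adjusted p = 0.00744, and -2.24, adjusted p = 0.00089), where 40.6% of genes were called in each, and it passed between the untreated lines in a fit of their 6 arrays alone (adjusted p = 0.0378, 36.5% called). NR4A3 did not pass after PMA (-0.46 ± 0.95, adjusted p = 0.763) until that array was left out (-2.08 ± 0.38, adjusted p = 0.00052), and did not pass untreated (0.33 ± 0.95, adjusted p = 0.829).

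Ordered by mean log2 signal, NR4A1 was highest in AsPC-1 PMA cells, then in BxPC-3 PMA, untreated AsPC-1 and untreated BxPC-3 cells. In that order AsPC-1 PMA and BxPC-3 PMA overlapped, BxPC-3 PMA and untreated AsPC-1 overlapped, and untreated AsPC-1 and untreated BxPC-3 did not. Without AsPC-1 PMA replicate 1 the AsPC-1 PMA arrays lay wholly above the BxPC-3 PMA arrays. For NR4A2 the order was AsPC-1 PMA and untreated AsPC-1, which overlapped, then BxPC-3 PMA and untreated BxPC-3, each apart from its neighbour. For NR4A3 the order was AsPC-1 PMA, BxPC-3 PMA, untreated BxPC-3 and untreated AsPC-1. Here AsPC-1 PMA overlapped BxPC-3 PMA, BxPC-3 PMA lay above untreated BxPC-3, and the untreated groups overlapped. As for NR4A1, the AsPC-1 PMA arrays lay wholly above the BxPC-3 PMA arrays once replicate 1 was left out. Apart from the 17.0% for PMA in BxPC-3, no share over all genes is given for groups that lay apart. This holds also for the AsPC-1 groups without replicate 1, and nothing is read from these orders for the NR4A genes.

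The genes whose log2 signal was most like that of each NR4A gene over the 12 arrays, among 16098, were named by Pearson r, as a description in which all genes share the same 4 groups and the same arrays. For NR4A1 they were ABTB2 (r = 0.958), the stress-induced transcription factor ATF3 (0.947), NDRG1 (0.947), the antiviral zinc finger gene ZC3HAV1 (0.947) and the syntenin gene SDCBP (0.945). ATF3 had differences of 2.15 ± 0.87 in BxPC-3 (adjusted p = 0.174) and 2.78 ± 0.87 in AsPC-1 (adjusted p = 0.128, and 0.032 with passage as a block), where its PMA signals were 35.0, 649.5 and 1092, against 32.3, 49.3 and 42.6 untreated, with replicate 1 again the low PMA array. With that array left out ATF3 passed in both lines, at 2.15 in BxPC-3 (adjusted p = 0.000188) and 4.27 in AsPC-1 (adjusted p = 8.45e-07). For NR4A2 they were the cytochrome CYP3A5 (0.983), ITPRID2 (0.979), the kinase WNK4 (0.979), HDGF (0.978) and SGPP2 (0.973), a phosphatase of sphingosine 1-phosphate. SGPP2 rose by 2.43 ± 0.24 in BxPC-3 (adjusted p = 0.000118) and had a difference of 0.66 ± 0.24 in AsPC-1 (adjusted p = 0.182), which passed at 0.88 (adjusted p = 0.01) when that array was left out. For NR4A3 they were the NF-kB inhibitor NFKBIB (0.966), the histone demethylase KDM6B (0.962), GCNA (0.954), THAP2 (0.953) and the homeobox gene DLX2 (0.951). KDM6B had differences of 1.09 in BxPC-3 (adjusted p = 0.185) and 1.31 in AsPC-1 (adjusted p = 0.16). Without AsPC-1 PMA replicate 1 it passed in both, at 1.09 (adjusted p = 0.00256) and 2.02 (adjusted p = 3.57e-05). The fit without that array called 14.9% of all genes in BxPC-3 and 19.5% in AsPC-1. The array left out was the lowest AsPC-1 PMA array for ATF3, SGPP2 and KDM6B, which by itself raises the AsPC-1 difference. These genes were chosen by likeness over the same arrays, so nothing is read from these calls.

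The other nuclear receptors were called about as often as all genes. Of 45 listed, 36 had a probe set of a single symbol and 32 were tested. In BxPC-3 2 fell and 0 rose (6.25%, beside 5.82% of all genes), with a median change of -0.07 beside 0.00 over all genes. PPARG, the adipogenic receptor, fell by 1.34 on the log2 scale (SE 0.15, adjusted p = 0.00039), and the glucocorticoid receptor NR3C1 fell by 0.96 (SE 0.14, adjusted p = 0.0015), and both calls held with any single array left out. In AsPC-1 limma called 0 of 32, beside 1.96% of all genes (1 higher and 8 lower at an unadjusted p below 0.05), with a median of -0.29 beside -0.10 over all genes. With AsPC-1 PMA replicate 1 left out the counts were 2 higher and 4 lower in BxPC-3, where 14.9% of genes were called, and 1 higher and 6 lower in AsPC-1, where 19.5% were. With passage as a block, 1 rose and 3 fell in BxPC-3, and 1 rose and 0 fell in AsPC-1, where 10.2% and 5.62% of genes were called.

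Of 22 tested regulators of NR4A transcription, 2 rose and 0 fell in BxPC-3, where 2.52% of all genes rose and 3.30% fell, and 3 rose and 0 fell in AsPC-1, where 1.24% rose and 0.721% fell. HDAC9, a class IIa deacetylase that holds MEF2 inactive, rose by 1.49 ± 0.28 in BxPC-3 (adjusted p = 0.00754) and by 1.39 ± 0.28 in AsPC-1 (adjusted p = 0.0253). The AsPC-1 call of HDAC9 was lost without AsPC-1 untreated replicate 2 or PMA replicate 2 or 3 (highest adjusted p = 0.132). ELK3, an ETS factor that works with serum response factor, rose by 0.81 ± 0.18 in BxPC-3 (adjusted p = 0.0159) and by 1.18 ± 0.18 in AsPC-1 (adjusted p = 0.00547). The BxPC-3 call of ELK3 was lost without BxPC-3 untreated replicate 2 or 3 or PMA replicate 1 or 3 (highest adjusted p = 0.0868). CREM, which encodes CREB-related activators and the repressor ICER, rose by 1.33 ± 0.29 in AsPC-1 (adjusted p = 0.0342), a call kept without AsPC-1 PMA replicate 1 or BxPC-3 PMA replicate 2 or 3 and lost without any other single array (highest adjusted p = 0.173). In the fit without AsPC-1 PMA replicate 1, 4 rose and 1 fell in BxPC-3, and 4 rose and 2 fell in AsPC-1, beside 14.9% and 19.5% of all genes called. In that fit the AsPC-1 rises were 1.62 for HDAC9, 1.32 for ELK3 and 1.65 for CREM.

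The genes known to answer CREB, a list that shares CREM and SIK1 with the regulators, had medians above that of all genes in both lines. The list was chosen with earlier results of these data known, so its medians are a description and no test of CREB. Of 15 tested, 2 rose and 0 fell in BxPC-3 with a median change of 0.70, and 3 rose and 0 fell in AsPC-1 with a median of 0.93, beside 5.82% and 1.96% of all genes called. DUSP1, a phosphatase that switches off MAP kinases, rose by 2.28 ± 0.52 in BxPC-3 (adjusted p = 0.021) and by 3.51 ± 0.52 in AsPC-1 (adjusted p = 0.00546, and by 4.39 without AsPC-1 PMA replicate 1). IRS2, the insulin receptor substrate, rose by 1.25 ± 0.29 in BxPC-3 (adjusted p = 0.0247), and had a difference of -0.71 ± 0.29 in AsPC-1 (adjusted p = 0.239). The BxPC-3 calls of DUSP1 and IRS2 were lost without any 1 of the 6 BxPC-3 arrays, with adjusted p-values up to 0.0997 for DUSP1 and 0.103 for IRS2. The transcription factor EGR1 rose by 2.46 ± 0.49 in AsPC-1 (adjusted p = 0.0245), and its call was lost without AsPC-1 untreated replicate 2 or 3 or PMA replicate 2 or 3 (highest adjusted p = 0.132), and it was 3.22 without AsPC-1 PMA replicate 1. The other call in AsPC-1 was CREM, given above. Without AsPC-1 PMA replicate 1, 6 of 15 rose in BxPC-3, and 9 rose and 1 fell in AsPC-1, beside 14.9% and 19.5% of all genes called. With passage as a block, 3 rose in BxPC-3, and 5 rose and 1 fell in AsPC-1, beside 10.2% and 5.62%. The gene that fell in AsPC-1 was IRS2 in both fits, at -1.11 without AsPC-1 PMA replicate 1 (adjusted p = 0.00211) and -0.71 with the block (adjusted p = 0.0231).

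The counts of partners and of reported targets stand beside 5.82% of all genes called in BxPC-3 and 1.96% in AsPC-1, and nothing particular to these lists is read from them. Of 15 tested partners and modifiers of NR4A proteins, limma called 0 in BxPC-3 (2 higher and 1 lower at an unadjusted p below 0.05) and 1 in AsPC-1, the corepressor RCOR1, which rose by 0.58 ± 0.14 (adjusted p = 0.0485). The RCOR1 call was kept without AsPC-1 PMA replicate 1 and lost without any other single array (highest adjusted p = 0.201). Without AsPC-1 PMA replicate 1, 1 partner rose and 1 fell in BxPC-3, and 2 rose and 1 fell in AsPC-1, beside 14.9% and 19.5% of all genes called, and with the block 0 rose and 1 fell in BxPC-3. Of the 17 genes reported as NR4A targets in other tissues, among them steroid, dopamine and gluconeogenic enzymes, 11 were tested. Limma called 0 of them in either line, and 0 had an unadjusted p below 0.05, with median changes of 0.26 in BxPC-3 and 0.15 in AsPC-1.

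**Figure D4:**
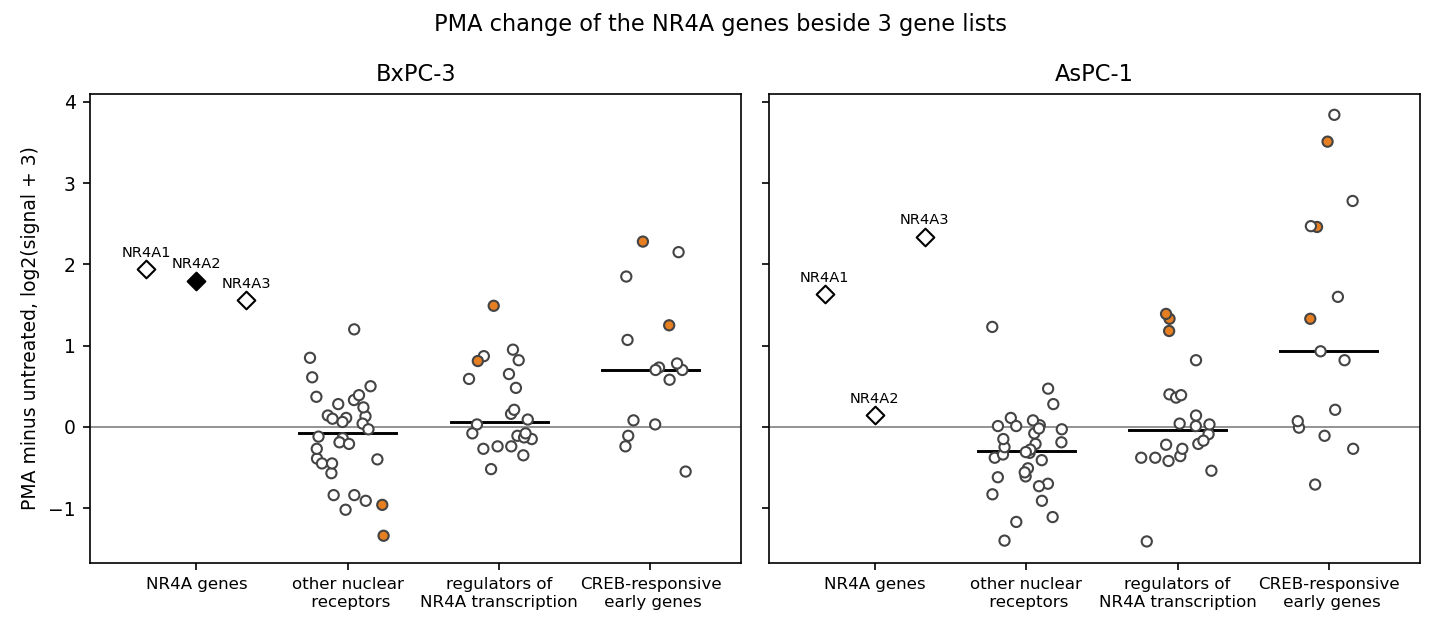
Change after PMA, as the difference of log2(signal + 3) between PMA and untreated arrays, for the 3 NR4A genes (diamonds) and the tested members of 3 gene lists (circles) in BxPC-3 and AsPC-1. Filled symbols have an adjusted p below 0.05 and bars are list medians. The CREB-responsive genes have medians of 0.70 in BxPC-3 and 0.93 in AsPC-1, and the other nuclear receptors -0.07 and -0.29.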

How the data were processed

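The deposited values are linear intensity signals of 54675 probe sets on 12 arrays, made with MAS5 per the submitters' processing notes, which give no version. The mean signal with 2% trimmed at each end was 100.01 to 100.02 on every array. Detection calls were not used here, and array number, not read depth, limits the precision.

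From these values, 62 control probe sets were left out. Of the others 41091 had 1 symbol, 1801 several and 11721 none, and 41037 matched the GRCh38.p14 gene table by Entrez ID, with 0 symbols updated. The brightest probe set of a gene was kept. Genes above an array's 40th percentile on at least 3 arrays were tested on log2(signal + 3) with limma 3.58.1 in R 4.3.3 over all 12 arrays (8 residual degrees of freedom, eBayes with trend, two-sided, Benjamini-Hochberg, threshold 0.05). Probe sets were also tested one by one. The smallest p of an exact test of 3 against 3 arrays is 0.1. Figures used matplotlib 3.10.9.

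Named besides the 3 NR4A genes were the 5 genes with the highest r to each and, from each list and PMA comparison, up to 3 called members with the largest change. The changes given for ATF3, SGPP2 and KDM6B were picked among these after seeing them. The members and lists were chosen with earlier results of these data known. The fit was tested on simulated data. Alternatives were scalings, pseudocounts, filters, probe set rules, no trend, a minimum log2 change of 1, fewer arrays and a passage block.

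The labels give treated and untreated arrays of one replicate number the same passage, which pairs them. Pairs' deviations from their group means had correlations of -0.054, -0.126 and -0.059 for BxPC-3, and of 0.411, 0.206 and 0.157 for AsPC-1. Between lines, numbers do not pair arrays.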

Additional observations from a re-analysis of the deposited data

Results flagged for a closer look

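Among the genes named in the report, 2 passed the fit's own term for the difference of the PMA responses, which called 0.491% of all genes. SGPP2 was named for its likeness to NR4A2 and PPARG for its call in BxPC-3. Both choices used these same data and favour genes that change in BxPC-3, so the count of 2 is a description. SGPP2 had a difference of 1.77 (BxPC-3 minus AsPC-1, adjusted p = 0.0391), with changes of 2.43 in BxPC-3 and 0.66 in AsPC-1, an adjusted p = 0.0541 with the passage block, and adjusted p-values between 0.0085 and 0.131 with single arrays left out. It passed in 2 of those 12 fits, those without AsPC-1 PMA replicate 1 (difference 1.55) or BxPC-3 untreated replicate 3. PPARG had a difference of -1.36 (adjusted p = 0.0172), with changes of -1.34 in BxPC-3 and 0.02 in AsPC-1, an adjusted p = 0.0244 with the block, and between 0.00206 and 0.0736 with single arrays left out. It passed in 6 of 12, and failed without AsPC-1 untreated replicate 2, BxPC-3 untreated replicate 1 or 2, or any BxPC-3 PMA replicate.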

How the results depend on the processing

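With single arrays left out, the changes after PMA in BxPC-3 lay between 1.65 and 2.50 for NR4A1, 1.63 and 1.97 for NR4A2 and 1.48 and 1.68 for NR4A3. In AsPC-1 they lay between 1.08 and 2.70, -0.09 and 0.57, and 1.51 and 3.96, and NR4A2 turned to -0.05 without AsPC-1 untreated replicate 2 and -0.09 without replicate 3. The differences of the responses lay between -0.76 and 0.87 for NR4A1, 1.23 and 1.89 for NR4A2 and -2.41 and 0.05 for NR4A3, the last turning to 0.05 without AsPC-1 PMA replicate 3. Between lines (BxPC-3 minus AsPC-1) after PMA they lay between -2.24 and -0.62, -1.96 and -1.62, and -2.08 and 0.38, with NR4A3 at 0.33 and 0.38 without AsPC-1 PMA replicate 2 and 3. Untreated they lay between -2.04 and -1.18, -3.68 and -3.02, and 0.11 and 0.72. Counts of called genes lay between 325 and 2394 in BxPC-3, 61 and 3147 in AsPC-1, 9 and 713 for the difference, 4300 and 6542 after PMA, and 4124 and 6542 untreated, highest without AsPC-1 PMA replicate 1 in each.

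Leaving out both AsPC-1 arrays of passage 8, chosen after seeing the data, gave 1.94 and 1.56 for NR4A1 and NR4A3 in BxPC-3, 2.57 and 4.35 in AsPC-1, differences of -0.64, 1.27 and -2.80 for NR4A1, NR4A2 and NR4A3, -2.24 and -2.08 for NR4A1 and NR4A3 after PMA and -1.60 for NR4A1 untreated, all past the threshold but the NR4A1 difference, with 3769, 3442 and 1187 genes called in BxPC-3, AsPC-1 and the difference. The arrays of a comparison alone called 3535 genes in BxPC-3, with NR4A1 at 1.94 and NR4A3 at 1.56, and 0 in AsPC-1 by limma (1526 at an unadjusted p below 0.05), and NR4A1 passed untreated at -1.47. The replicate block by passage called 1645 genes in BxPC-3, 904 in AsPC-1 and 126 for the difference, and changed no call of the 3 NR4A genes (adjusted p = 0.0529 for NR4A1 and 0.00185 for NR4A2 in BxPC-3). Testing every probe set called 1563 in BxPC-3, 9351 after PMA and 8834 untreated. In AsPC-1, averaging probe sets called 179 genes and no intensity trend 113.

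Signs turned for NR4A1 in AsPC-1 without x_at probe sets (-0.58), for the NR4A1 difference with a pseudocount of 16 (-0.23) or averaged probe sets (-0.42), and for NR4A3 between untreated lines with averaged probe sets (-0.33). None of these had passed. The causes were not tested. The 3 passages of a line and dim signals limit what NR4A1 and NR4A3 can show.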
